A study of Mus musculus with 48 samples.

Results

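The genes described here are 6 nuclear genes for small subunits of cytochrome c oxidase that come as muscle and general isoforms: Cox6a2 and Cox6a1, Cox7a1 and Cox7a2, and Cox8b and Cox8a. They were chosen by name, as every probe set whose gene symbol in the array's platform annotation is one of these 6. That gave 11 of the 45101 probe sets, and 6 of the 18193 genes with a single symbol. For each gene the brightest probe set, by mean over all arrays, stands for the gene, and the other 5 are given beside it. The 6 symbols span 3 muscle and 3 general isoforms. The rule itself uses names and no measured value, but the genes were picked with earlier results of these data known.

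RNA was measured on 48 Affymetrix MOE430v2 arrays, which read mouse transcripts with short oligonucleotide probe sets, in 16 groups of 3 arrays. All cells were C2C12, an established mouse myoblast line that fuses into myotubes when serum is lowered, and all values are log2 expression values from RMA. Undifferentiated cells in medium with 20% fetal bovine serum were harvested at -24 h and at 0 h. Cells moved to medium with 2% horse serum were harvested at 0.5, 1, 1.5, 2, 3, 6, 9, 12, 24, 48, 96 and 144 h. Cells in 2 further groups received 50 µM cycloheximide, an inhibitor of protein synthesis, from 1 h before the change of medium, and were harvested at 1 h and 3 h. The series describes the 3 harvests of a group as growths of successive passages of this line, so p-values measure the spread between passages of a single line. The labels name no cells kept in growth medium after 0 h, so time in culture and the change of medium cannot be told apart.

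Cytochrome c oxidase is complex IV of the respiratory chain. It passes electrons from cytochrome c to oxygen and pumps protons across the inner mitochondrial membrane. The catalytic core is made in the mitochondrion, and the smaller subunits around it are made from nuclear genes. Subunits 6a, 7a and 8 each have an isoform found in most tissues and a second isoform typical of heart and skeletal muscle, and Cox7a1 and Cox8b are also known from brown fat. Subunit 6a is known as a site where nucleotides act on the enzyme. Subunit 7a lies at the face through which the enzyme meets other complexes, and subunit 8 is a single short helix in the membrane.

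Upstream sequences are shown because all 3 muscle isoforms had risen at 144 h while none of their general partners passed the test there in the main fit. RefSeq start sites on GRCm38.p6 matched 5 of the 6 genes, and Cox6a2 was not among them. Each line holds the 250 bases before the start site, read 5′ to 3′ on the gene's own strand. They lie at chr7:140900447-140900696 on the minus strand for Cox8b, chr7:30183921-30184170 on the plus strand for Cox7a1, chr19:7217617-7217866 on the minus strand for Cox8a, chr9:79759854-79760103 on the minus strand for Cox7a2, and chr5:115348959-115349208 on the minus strand for Cox6a1. Capitals mark every match, on either strand, to the motifs searched: the E-box CANNTG, the NRF1 core GCATGC, the Ets core CCGGAA, the Sp1 box GGGCGG, the oestrogen-related receptor half-site AAGGTCA, the MEF2 site and the CArG box.
Cox8b: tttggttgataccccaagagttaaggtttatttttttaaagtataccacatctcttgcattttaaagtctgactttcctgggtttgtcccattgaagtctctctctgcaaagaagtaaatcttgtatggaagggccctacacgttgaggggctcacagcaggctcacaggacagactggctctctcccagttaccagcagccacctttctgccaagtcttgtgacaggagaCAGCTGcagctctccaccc
Cox7a1: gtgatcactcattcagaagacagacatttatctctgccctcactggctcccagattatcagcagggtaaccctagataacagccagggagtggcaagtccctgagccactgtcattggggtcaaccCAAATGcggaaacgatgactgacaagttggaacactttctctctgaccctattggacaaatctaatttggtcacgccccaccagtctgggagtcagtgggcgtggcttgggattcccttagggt
Cox8a: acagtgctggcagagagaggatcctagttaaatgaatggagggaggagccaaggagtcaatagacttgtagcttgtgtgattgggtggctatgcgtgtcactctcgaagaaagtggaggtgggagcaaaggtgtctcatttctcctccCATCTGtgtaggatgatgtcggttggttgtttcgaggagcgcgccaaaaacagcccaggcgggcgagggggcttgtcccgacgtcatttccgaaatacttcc
Cox7a2: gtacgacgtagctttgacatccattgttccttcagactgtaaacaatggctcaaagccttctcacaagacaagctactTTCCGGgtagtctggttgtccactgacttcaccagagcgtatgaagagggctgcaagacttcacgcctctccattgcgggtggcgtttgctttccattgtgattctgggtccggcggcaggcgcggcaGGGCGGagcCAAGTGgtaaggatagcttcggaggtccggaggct
Cox6a1: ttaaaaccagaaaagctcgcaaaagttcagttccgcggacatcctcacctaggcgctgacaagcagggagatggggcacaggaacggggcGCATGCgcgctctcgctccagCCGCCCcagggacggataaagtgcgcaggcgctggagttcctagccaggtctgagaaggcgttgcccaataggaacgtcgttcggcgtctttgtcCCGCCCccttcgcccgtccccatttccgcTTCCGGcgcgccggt

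In the Cox8b window the letters CAGCTG, an E-box of the kind that myogenic basic helix-loop-helix factors bind, began 19 bases before the start site (-19). These letters also match the general form of the E-box. They were present in 13% of the 32851 RefSeq windows of that length. The Cox7a1 window held a single match, an E-box at -124, and CANNTG was present in 66.2% of windows. Neither Cox8b nor Cox7a1 had a match to the MEF2 site (2.92% of windows), the CArG box (1.47%) or the oestrogen-related receptor half-site (4.08%).

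Among the general isoforms, Cox6a1 held the most matches. It had an NRF1 core at -160 (6.7% of windows), an Ets core at -15 on the opposite strand (12%), and Sp1 boxes at -139 and -44 on the opposite strand (32.7%). Cox7a2 had an Ets core at -172 on the opposite strand, an Sp1 box at -44 and an E-box at -35, while Cox8a had an E-box at -102 and no other match. The CpG count set Cox6a1 and Cox8b far apart. Cox6a1 had 26 CpG, with 90.4% of windows holding fewer, and Cox8b had 1, with 7.87% holding fewer. The counts were 14 for Cox7a2, 11 for Cox8a and 4 for Cox7a1, against a median of 6 over all windows. These matches describe letters in a window, and no binding was measured.

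The median value of an array was 4.003 to 4.16 on the 42 arrays without cycloheximide and 4.20 to 4.24 on the 6 with it. Arrays of the same group correlated at 0.982 to 0.995, and none duplicated another. As a check of the labels, Myog, the myogenic factor switched on at commitment to fusion, stood at 5.64 ± 0.74 (SD, n = 3) at -24 h, 10.15 ± 1.12 at 0 h and 12.46 ± 0.34 at 144 h. Its rise of 4.51 (SE 0.64) from -24 h to 0 h passed limma's test across all genes, so the 0 h cultures already held Myog transcript. Differences below are therefore given against 0 h and, where they matter, against -24 h. Both sets share the later arrays.

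The question behind the time course is which isoforms change as myoblasts become myotubes, and when. At 144 h all 3 muscle isoforms had risen against 0 h. None of the 3 general isoforms passed the test in the main fit, which leaves replicate number out. With replicate number added to the fit as a block, Cox6a1 and Cox8a passed there. Over all 18193 genes, the main fit called 13.5% risen and 14.9% fallen in that comparison, and the median difference was 0.04. Calls are by limma with a Benjamini-Hochberg adjusted p under 0.05. The same test called 6.56% risen and 7.42% fallen at 24 h, 12.4% and 14.3% at 48 h, and 15.5% and 17.1% at 96 h. All 3 arrays at 144 h lay above all 3 at 0 h for 19.1% of genes, and below for 17.2%. Fewer cells of a type and less RNA per cell cannot be told apart in such bulk samples.

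Cox6a2, the muscle isoform of subunit 6a, read 5.71, 4.78 and 5.21 on the 3 arrays at 0 h. At 24 h it read 8.08, 7.45 and 7.76, at 48 h 9.63, 9.26 and 9.21, at 96 h 10.79, 10.29 and 10.11, and at 144 h 10.50, 10.71 and 10.45. Every array from 24 h on lay above every array at 0 h, and the 96 h and 144 h arrays overlapped each other. The log2 difference from 0 h was 2.53 (SE 0.38, limma adjusted p = 6.03e-06) at 24 h and 5.32 (SE 0.38, adjusted p = 3.25e-14) at 144 h, which is 39.98-fold. A second probe set for the gene, at a lower level, rose by 4.64 (SE 0.22) over the same interval, when 9.15% of all probe sets rose and 10.8% fell.

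Cox8b, the muscle isoform of subunit 8, read 4.74, 4.65 and 4.85 at 0 h. It read 7.50, 7.34 and 7.45 at 24 h, 8.71, 8.23 and 7.90 at 48 h, 9.65, 9.45 and 9.14 at 96 h, and 9.78, 10.16 and 10.13 at 144 h. These 5 groups did not overlap, and their order followed time. The difference from 0 h was 2.68 (SE 0.24, adjusted p = 1.65e-10) at 24 h and 5.28 (SE 0.24, adjusted p = 8.18e-20) at 144 h, or 38.8-fold.

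Cox7a1, the muscle isoform of subunit 7a, behaved differently at 24 h. Its arrays read 3.90, 4.01 and 3.84 at 0 h and 3.95, 4.46 and 3.93 at 24 h, and the groups overlapped. The difference of 0.20 (SE 0.20, 95% interval -0.21 to 0.61) did not pass (adjusted p = 0.552). At 48 h it read 5.26, 4.85 and 4.61, at 96 h 7.74, 7.12 and 6.92, and at 144 h 7.50, 8.62 and 8.42. All 9 of these arrays lay above the 0 h arrays, and the 96 h and 144 h groups overlapped. The rise from 0 h was 0.99 (SE 0.20, adjusted p = 0.000255) at 48 h, 3.34 (SE 0.20, adjusted p = 5.60e-16) at 96 h and 4.26 (SE 0.20, adjusted p = 3.63e-19) at 144 h, the last being 19.2-fold. The 0 h level of 3.92 lay below the median value of every array, so this fold is the one between measured values and starts near the low end of the array.

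**Figure D1:**
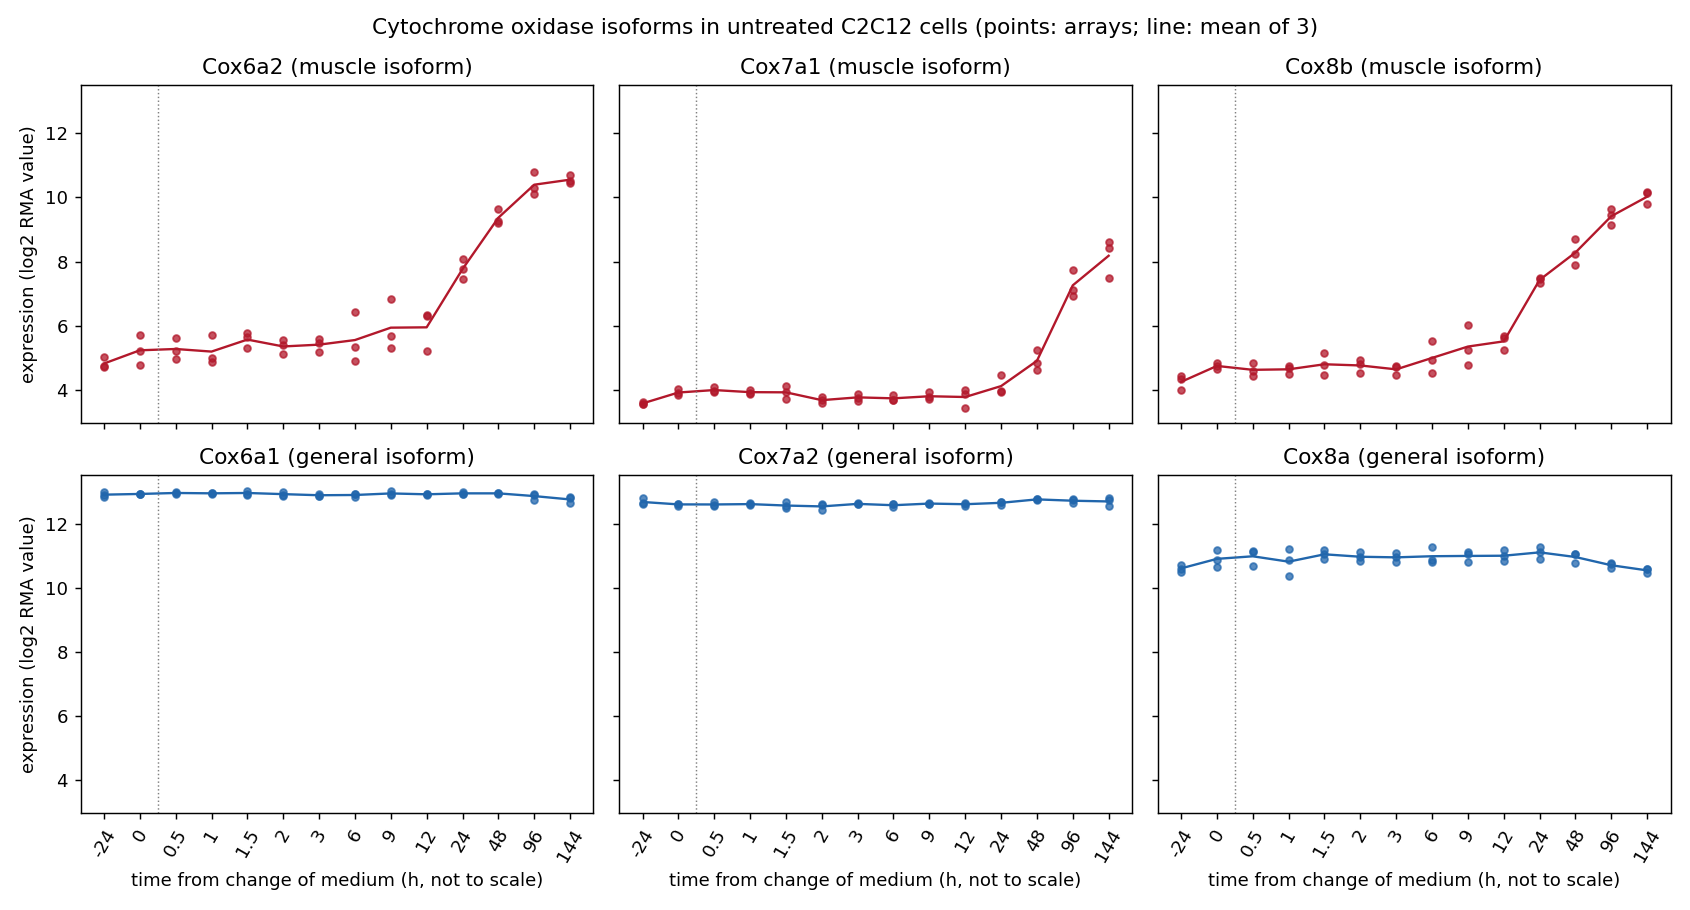
Log2 RMA value of each isoform on the 42 untreated arrays, by hours from the change of medium (positions not to scale); points are arrays, lines join means of 3, and the dotted line marks the change of medium. The 3 muscle isoforms (top row) climb from 24 h or 48 h on, to means of 10.55 for Cox6a2, 8.18 for Cox7a1 and 10.02 for Cox8b at 144 h, while the 3 general isoforms (bottom row) stay within a narrow band.

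Among the general isoforms, Cox6a1 and Cox7a2 are read at the other end of the scale, with the mean of the Cox6a1 probe set above 99.7% of all probe sets and that of Cox7a2 above 99.6%. The second probe sets of these 2 genes, which were dimmer, gave differences of larger size against 0 h at 24, 48, 96 and 144 h. For Cox6a1 the direction differed at 24 h and 48 h. The mean of its brightest probe set was 12.92 at 0 h and 12.94 at both times, and that of the second was 11.42, then 11.31 and 11.30. What part the brightness has in the size of the differences was not tested. Cox6a1, the widely expressed form of subunit 6a, ran from 12.64 to 13.03 over the 42 untreated arrays, with a median of 12.92. Its arrays read 12.92, 12.93 and 12.93 at 0 h and 12.64, 12.79 and 12.83 at 144 h. Every 144 h array was below every 0 h array, by a mean of -0.17 (SE 0.07, adjusted p = 0.0651), which did not pass. That result sits near the threshold, and it passed with replicate number as a block. It passed without the third array at 144 h (-0.21, adjusted p = 0.0446) and after repeated quantile normalization (adjusted p = 0.0449), and the second Cox6a1 probe set fell by 0.32 (SE 0.11, adjusted p = 0.0350 over probe sets).

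Cox7a2, the general form of subunit 7a, ran from 12.42 to 12.80, with a median of 12.62. It read 12.56, 12.61 and 12.62 at 0 h and 12.54, 12.73 and 12.80 at 144 h, and these groups overlapped. The difference was 0.09 (SE 0.07, 95% interval -0.06 to 0.24, adjusted p = 0.401). At 48 h it read 12.76, 12.73 and 12.78, all above 0 h, but the difference of 0.16 (SE 0.07) did not pass (adjusted p = 0.111). Its second probe set rose by 0.22 (SE 0.08, adjusted p = 0.0411 over probe sets) at that time, when 8.35% of probe sets rose.

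Cox8a, the general form of subunit 8, ran from 10.36 to 11.28, with a median of 10.88. It read 11.18, 10.86 and 10.66 at 0 h and 10.58, 10.57 and 10.47 at 144 h. The 144 h arrays were all lower, by -0.36 (SE 0.17, 95% interval -0.70 to -0.02), and the difference did not pass (adjusted p = 0.108). It passed with replicate number as a block. The second Cox8a probe set gave -0.36 as well (SE 0.17). The remaining one lay between 3.01 and 3.71 on every untreated array, near the low end of the array's values, and did not pass at any late time. On the brightest probe set, Cox8a had a mean of 10.60 at -24 h, and 0 h was higher by 0.30 (SE 0.17, adjusted p = 0.307). Against -24 h the 144 h arrays differed by -0.06 (SE 0.17, adjusted p = 0.823), so the lower level at 144 h was seen against 0 h only.

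The order of groups shows the contrast within each pair. For Cox8b the groups at 144, 96, 48, 24 and 12 h stood in that order, the first 4 each separate from the next, and from 12 h down to 0.5 h each overlapped its neighbour in the order. The lowest group, -24 h, was clear of 0.5 h. For Cox6a2 the order began 144, 96, 48 and 24 h. The 144 h and 96 h groups overlapped, 96 h stood clear of 48 h and 48 h clear of 24 h. For Cox7a1 the order began 144, 96 and 48 h, with only the 96 h group clear of the group after it. For Cox6a1, Cox7a2 and Cox8a, each of the 16 groups overlapped the next, and the group means spanned 0.20, 0.25 and 0.56 in all. An F-test over the 12 differentiation times against 0 h, which called 38.2% of genes, gave adjusted p = 5.72e-18 for Cox6a2, 8.96e-22 for Cox7a1 and 1.23e-23 for Cox8b. It gave 0.437 for Cox6a1, 0.307 for Cox7a2 and 0.221 for Cox8a.

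Against all genes, the muscle isoforms were among the largest rises. At 144 h Cox6a2 ranked 28, Cox8b 29 and Cox7a1 66 of 18193 by log2 difference from 0 h. At 24 h the ranks were 73 for Cox6a2, 68 for Cox8b and 3935 for Cox7a1. Rises of 4 or more, a log2 size that all 3 exceeded at 144 h, were called for 0.429% of genes.

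The rises were also set out as shares of the final difference. Of its 144 h log2 difference, Cox6a2 had reached 47.6% at 24 h, 77.7% at 48 h and 97.0% at 96 h. Cox8b had reached 50.8%, 67.0% and 88.5% at those times, and Cox7a1 4.70%, 23.2% and 78.4%. These shares are descriptions, and the difference in schedule between genes was not tested. Cox7a1 started lower, at 3.92, than Cox6a2 at 5.23 and Cox8b at 4.75, each on its own probe set, and the part of the starting level in these shares was not tested. The tests of each step follow gene by gene.

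Between 12 h and 24 h, when 1.09% of genes were called risen, 2 of the 3 muscle isoforms rose. Cox6a2 rose by 1.81 (SE 0.38, adjusted p = 0.00460) and Cox8b by 1.92 (SE 0.24, adjusted p = 2.56e-06), while Cox7a1 differed by 0.34 (SE 0.20, adjusted p = 0.607). The Cox6a2 call was lost without the second array at 12 h (adjusted p = 0.112) or the first at 24 h (adjusted p = 0.0566). Between 24 h and 48 h, with 1.88% of genes risen, all 3 rose, with differences of 1.60 (SE 0.38) for Cox6a2, 0.85 (SE 0.24) for Cox8b and 0.79 (SE 0.20) for Cox7a1. None of these 3 calls survived the loss of the first array at 48 h (adjusted p = 0.0705 for Cox6a2, 0.300 for Cox8b and 0.203 for Cox7a1). The Cox6a2 call was also lost without the second array at 24 h (adjusted p = 0.0629), the Cox7a1 call without the first (0.0951) or the third (0.109), and the Cox8b call without any of the 24 h arrays (0.0691 to 0.119) or without the second array at 48 h (0.0701).

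The largest step of Cox7a1 came between 48 h and 96 h, when 1.96% of genes were called risen. It rose by 2.35 (SE 0.20, adjusted p = 2.50e-10), or 5.11-fold, and Cox8b rose by 1.13 (SE 0.24, adjusted p = 0.00197). Cox6a2 differed by 1.03 (SE 0.38, adjusted p = 0.132), with all 3 later arrays higher. Between 96 h and 144 h only 0.209% of genes were called risen, and Cox7a1 was among them, with a rise of 0.92 (SE 0.20, adjusted p = 0.0239). Its 2 groups overlapped, because the first array at 144 h (7.50) lay below the first at 96 h (7.74). The call was lost without the second or the third array at 96 h (adjusted p = 0.143 and 0.183) or the second or the third at 144 h (0.207 and 0.140). In the same step Cox6a2 differed by 0.16 (SE 0.38) and Cox8b by 0.61 (SE 0.24, adjusted p = 0.473).

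Early in differentiation no isoform passed against 0 h, at any of the 8 times from 0.5 h to 12 h, where few genes were called either way. Those shares were, in order of time, 0.0385%, 0.192%, 0.423%, 0.517%, 0.39%, 0.506%, 1.36% and 2.82%. Cox8b came nearest. At 12 h its arrays read 5.69, 5.24 and 5.60, all above 0 h, as for 8.95% of genes, with a difference of 0.77 (SE 0.24, adjusted p = 0.0770). Cox6a2 at 12 h read 6.30, 5.22 and 6.33, which overlapped 0 h, with a difference of 0.72 (SE 0.38, adjusted p = 0.416). Cox7a1 differed by -0.14 (SE 0.20).

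Before the change of medium, none of the 6 isoforms passed between -24 h and 0 h, an interval in which 7.26% of genes rose and 5.86% fell. Cox8b read 4.34, 3.99 and 4.42 at -24 h, all below 0 h, an order that 15.7% of genes shared, with a difference of 0.50 (SE 0.24, adjusted p = 0.203). Cox7a1 read 3.62, 3.56 and 3.55, also all below 0 h, with a difference of 0.34 (SE 0.20, adjusted p = 0.355). Cox6a2 overlapped 0 h and differed by 0.41 (SE 0.38, adjusted p = 0.634). Measured from -24 h, the differences at 144 h were 5.73 for Cox6a2, 4.60 for Cox7a1 and 5.78 for Cox8b, again with all 3 called against 17.8% of genes risen.

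From -24 h to 24 h, 13.5% of genes rose, and 4 isoforms were called. Besides Cox6a2 (2.94, SE 0.38) and Cox8b (3.18, SE 0.24), these were Cox7a1, with 0.54 (SE 0.20, adjusted p = 0.0441), and the general isoform Cox8a, with 0.50 (SE 0.17, adjusted p = 0.0219). The Cox7a1 call was lost without any 1 of the -24 h arrays (adjusted p = 0.0817 to 0.0959) or without the second array at 24 h (0.260). The Cox8a call was lost without the first or the third array at -24 h (0.0609 and 0.0754), or the first or second at 24 h (0.112 and 0.0582). No general isoform was called in the main fit from -24 h to 48, 96 or 144 h. That fit called 30.1%, 38.9% and 34.8% of genes either way there. With replicate number as a block, Cox8a was called at 48 h and Cox6a1 at 144 h.

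Within each array the muscle isoform was then set against its partner, so that any shift shared by the whole array drops out. The value is the log2 difference muscle minus general, and only its change is read, since probe sets of different genes do not share a scale. From growth medium (-24 h and 0 h, 6 arrays) to the late times (96 h and 144 h, 6 arrays), it changed by 5.56 for the 6a pair, 3.91 for the 7a pair and 5.35 for the 8 pair. In each pair all 6 late arrays lay above all 6 growth arrays. The two-sided exact permutation p was 0.00216 for each pair, the smallest that 924 splits allow, and 0.00216 after adjustment over the 3 pairs. The splits treat arrays of different times as exchangeable and take no account of replicate number. The rises of the muscle isoforms on these same arrays are described above, so this p is not separate support for them. The muscle member supplied nearly all of each change. It moved by 5.45, 3.97 and 5.22 in the 6a, 7a and 8 pairs, and the general member by -0.11, 0.07 and -0.13.

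Time by time, 3 arrays against 3 cannot give an exact p below 0.10, so only overlap is described. The 8 pair stood clear of its 0 h arrays from 12 h on, the 6a pair from 24 h on and the 7a pair from 48 h on. For single genes, all arrays lay above those at 0 h for 8.95% of genes at 12 h and 19.1% at 144 h. No such share was worked out for differences between genes. The 7a pair was also clear at -24 h, where its change from 0 h was -0.42, with arrays between -0.55 and -0.29. At 24 h the 7a pair had changed by 0.15, with arrays between -0.07 and 0.48, and the 8 pair by 2.48, with arrays between 2.37 and 2.69.

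**Figure D2:**
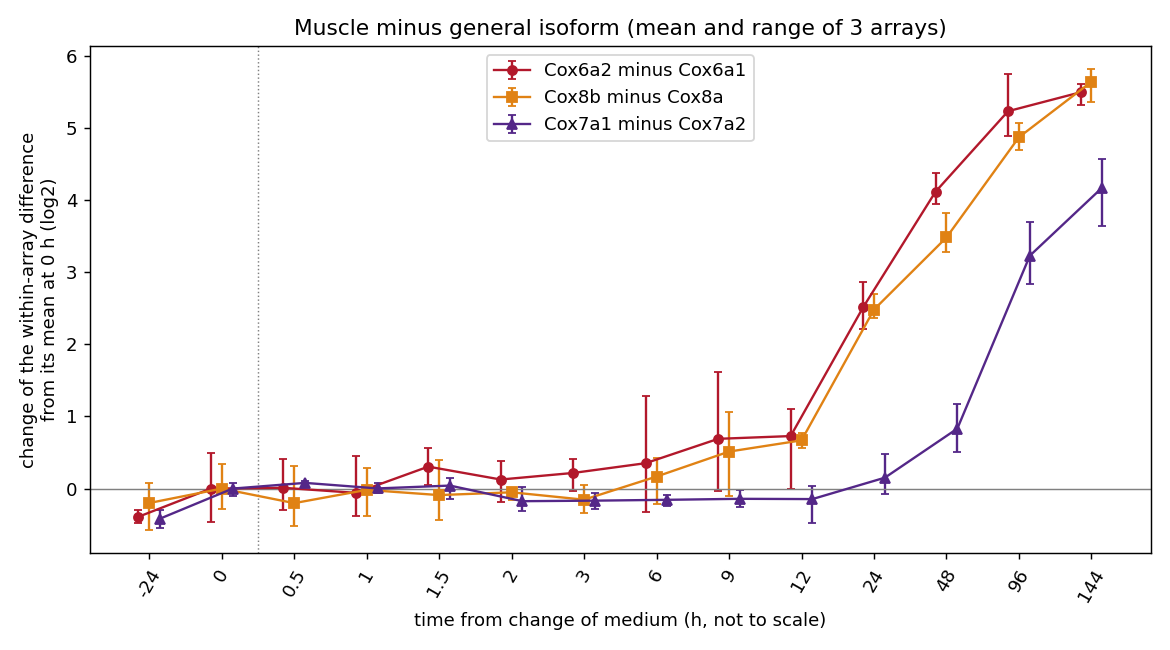
Change of the within-array log2 difference, muscle minus general isoform, from its mean at 0 h, for the 14 untreated times (positions not to scale); markers are means of 3 arrays and bars span the lowest to the highest array. The 6a and 8 pairs leave 0 by 24 h, with changes of 2.51 and 2.48, while the 7a pair is still at 0.15 and reaches 4.17 at 144 h.

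The remaining nuclear genes of the complex changed little by comparison. Of 13 listed, 12 were measured, and Cox7b was not analysed here. At 144 h against 0 h, 13.5% of all genes had risen and 14.9% had fallen. The 12 had a median of 0.15, beside 0.04 over all genes, and 3 of them had risen and none had fallen. These were Cox5b, a zinc-binding subunit on the matrix side (0.46, SE 0.13), Cox6b1, which faces the intermembrane space (0.45, SE 0.07), and Cox4i1, the general isoform of the largest nuclear subunit (0.22, SE 0.06). Cox6b1 was the only 1 of the 3 that stayed called when arrays were centred on housekeeping genes or only the compared arrays were fitted. The Cox4i1 call was then lost (adjusted p = 0.608 and 0.158), as was the Cox5b call (0.175 and 0.0520), and the Cox5b call was also lost without the third array at 0 h (0.0664).

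The other 9 did not pass at 144 h. Cox5a differed by 0.22, Cox6c by -0.13, Cox7a2l by -0.11, Ndufa4 by 0.12 and Cox8c by 0.18. Cox4i2, the oxygen-sensitive alternative to Cox4i1, differed by -0.04, and Cox6b2 and Cox7b2, forms known from testis, by 0.21 and 0.08. Their levels stayed between 2.96 and 4.32 in both groups, near the low end of the array. Cox7c differed by -0.28, on a probe set that also read low, 3.96 at 0 h. At 96 h, when 15.5% of all genes had risen and 17.1% had fallen, the same 3 genes were risen. Cox6c had fallen by 0.43 (SE 0.16, adjusted p = 0.0385). That fall was lost without any 1 of the 0 h arrays (adjusted p = 0.0534 to 0.140) or without the second array at 96 h (0.284).

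**Figure D3:**
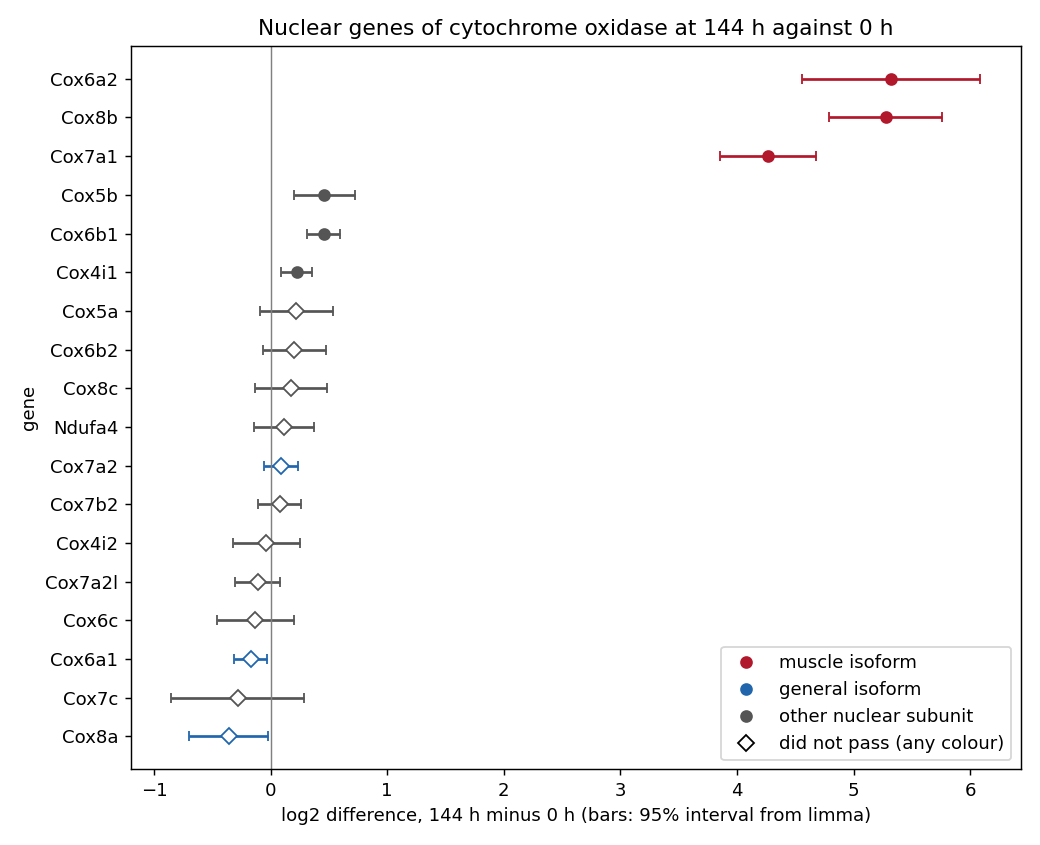
Log2 difference, 144 h minus 0 h, for the 6 isoforms (red, muscle; blue, general) and 12 other nuclear genes of the complex (grey), with 95% intervals from limma; filled circles passed and open diamonds did not. The 3 muscle isoforms lie at 4.26 or above, and the next highest gene, Cox5b, at 0.46.

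Genes that build the complex were read next. Of 22 measured assembly and cofactor delivery genes, 9 had risen at 144 h, none had fallen and 13 did not pass. Over all genes 13.5% had risen and 14.9% had fallen. The median of the list was 0.28, beside 0.04 over all genes. Higd1a, a small protein that binds the complex, rose by 1.17 (SE 0.16), and Cox19, a copper chaperone of the intermembrane space, by 1.10 (SE 0.10). Pet100, an assembly factor, rose by 0.68 (SE 0.15). Cox17, the copper chaperone that feeds the metal-loading factors, rose by 0.91 (SE 0.10) on a probe set open to cross-hybridisation, and on its other probe set the difference was -0.08 (adjusted p = 0.612).

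Of 16 regulators of mitochondrial gene expression, 2 had risen and 2 had fallen at 144 h, shares close to the 13.5% and 14.9% over all genes. Polrmt, the mitochondrial RNA polymerase, rose by 0.69 (SE 0.17), and Esrra, an orphan nuclear receptor of oxidative genes, by 0.39 (SE 0.11). Gabpa, the Ets factor also called NRF2 alpha, fell by 1.27 (SE 0.41), and Nrf1, a regulator of respiratory genes, by 0.39 (SE 0.15, adjusted p = 0.0485). The Nrf1 call was lost without any single 0 h array or without the first or the third array at 144 h (adjusted p = 0.0516 to 0.326). The Gabpa call was lost without the third array at 0 h or the second or the third at 144 h (0.109 to 0.146), and the Esrra call without the second at 144 h (0.101). Ppargc1a, the coactivator of mitochondrial biogenesis, stood at 3.33 ± 0.16 at 0 h and 3.35 ± 0.08 at 144 h and did not pass.

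Muscle isoforms of other energy proteins were read beside the oxidase isoforms. Of 9 measured, 8 had risen at 144 h and 1 had fallen, beside 13.5% and 14.9% of all genes, with a median of 4.75. Mb, myoglobin, rose by 6.83 (SE 0.50), Ckm, the muscle creatine kinase, by 5.66 (SE 0.55), Pgam2, the muscle phosphoglycerate mutase, by 5.63 (SE 0.31), and Fabp3, the fatty acid binding protein of heart and muscle, by 5.13 (SE 0.19). The exception was Slc25a4, the ADP/ATP carrier of heart and muscle. It read 12.15 ± 0.02 at 0 h and 11.86 ± 0.18 at 144 h, and it fell by 0.29 (SE 0.08, adjusted p = 0.00232). That call was lost when only the compared arrays were fitted (0.125). Its general partner Slc25a5, named after its values were seen, rose by 0.36 (SE 0.07). In this pair the muscle form moved down, opposite to the muscle forms of the oxidase, and the general form up, although the Slc25a5 call was lost with housekeeping centring (adjusted p = 0.167).

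For the 2 lists that follow, the shares over all genes at 144 h were again 13.5% risen and 14.9% fallen. Of 8 measured general counterparts, 2 had risen and 4 had fallen, with a median of -0.43. Fabp5 fell by 1.81 (SE 0.23), and Cpt1a, the liver-type carnitine palmitoyltransferase, fell by 1.80 (SE 0.18). Pygb, the brain glycogen phosphorylase, fell by 0.63 (SE 0.19), a call lost without the first array at 144 h (adjusted p = 0.110). Ckb, the brain creatine kinase, rose by 1.76 (SE 0.15). Among 12 genes of muscle differentiation, 10 had risen and 1 had fallen, and Tnnt3 (6.30, SE 0.66), Mef2c (5.83, SE 0.45), Myh3 (5.56, SE 0.80) and Mymk (4.47, SE 0.73) moved most.

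Markers of other cells that use these isoforms were checked, since heart and brown fat carry the same muscle forms. Of 8 brown adipocyte markers, 1 rose and 1 fell at 144 h, shares close to the 13.5% and 14.9% over all genes. Dio2, the deiodinase that activates thyroid hormone, rose by 3.19 (SE 0.48), and Zic1 fell by 1.66 (SE 0.19). The defining marker Ucp1 stood at 3.91 at 0 h and 3.83 at 144 h, and Cidea at 3.53 and 3.63. The mean of the list ran from 4.17 to 4.26 over the 0 h arrays and from 4.26 to 4.62 over the 144 h arrays.

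The counts of the remaining marker lists stand beside the same 13.5% risen and 14.9% fallen over all genes. Of 8 cardiomyocyte markers, 1 rose, Myl4, an atrial and embryonic muscle myosin light chain, by 7.18 (SE 0.59). Myh6 stood at 3.11 and 3.18 and Nppa at 3.22 and 3.11. That list's mean, which includes Myl4, ran from 4.01 to 4.19 at 0 h and from 4.83 to 5.03 at 144 h. The median difference of its genes was 0.01. Of 6 smooth muscle markers, Tagln rose by 1.19 (SE 0.29), with list means of 7.39 to 7.89 and 8.03 to 8.25, and Myh11 stood at 3.21 and 3.24. Of 6 adipocyte markers, Cebpa fell by 1.00 (SE 0.26), Pparg fell by 0.90 (SE 0.20) and Fabp4 rose by 0.28 (SE 0.11, adjusted p = 0.0418), with list means of 4.45 to 4.58 and 4.17 to 4.31 and Adipoq at 3.04 in both. The Fabp4 call was lost without the first or the third array at 0 h or the second or the third at 144 h (adjusted p = 0.0962 to 0.216), and with the mean of its probe sets the difference was 0.01. None of 5 leukocyte markers passed, with list means of 3.999 to 4.17 and 4.13 to 4.19 and Ptprc at 3.18 and 3.25.

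Cycloheximide was used to ask which transcripts need new protein to change, and in the main fit it gave no call for any of the 6 isoforms. With replicate number as a block, Cox6a2 was called at both 1 h and 3 h. Without the drug no isoform had passed against 0 h by 3 h. Whether the later rises need new protein therefore cannot be read from these arrays. The drug arrays stood apart from the others, with an all-gene median shift of 0.20 at 1 h and 0.19 at 3 h. In the main fit 24.6% and 34.4% of genes were called either way at those times. Cox6a2 had the largest difference of the 6. It read 5.70, 4.88 and 5.00 in untreated cells at 1 h and 6.94, 5.71 and 5.84 with the drug, which did not overlap, as for 37.3% of genes. The difference was 0.97 (SE 0.38, 95% interval 0.21 to 1.74, adjusted p = 0.0552), or 1.96-fold. It passed without the first untreated array (1.23, adjusted p = 0.0305) or the second drug array (1.20, adjusted p = 0.0407). The second Cox6a2 probe set, near the low end of the array, did not show a difference of that size. Its means at 1 h were 3.66 untreated and 3.70 with the drug, and at 3 h 3.59 and 3.87.

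At 3 h Cox6a2 read 5.58, 5.19 and 5.46 untreated and 7.13, 5.56 and 5.76 with the drug. The groups overlapped narrowly, and the difference was 0.74 (SE 0.38, adjusted p = 0.128). Cox8b, whose late course was closest to that of Cox6a2 among the members, had a difference of 0.20 at 1 h and of 0.30 at 3 h (SE 0.24 for both), and Cox7a1 of 0.29 and 0.15 (SE 0.20 for both). The general isoforms differed by between -0.12 and 0.24, and none passed. A test of the difference between the drug's effects at 3 h and 1 h passed for none of the 6, and it called 4.29% of genes. For Cox6a2 that difference was -0.23 (SE 0.53, 95% interval -1.31 to 0.85).

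**Figure D4:**
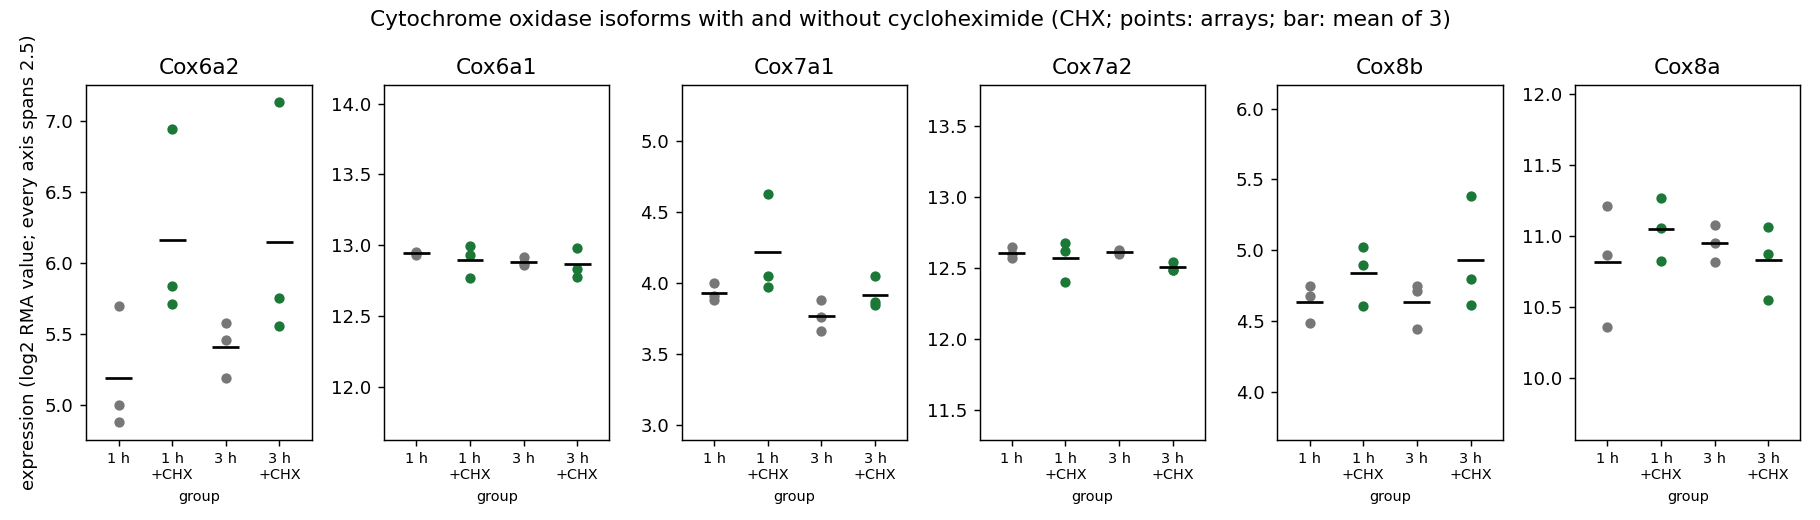
Log2 RMA value of the 6 isoforms at 1 h and 3 h of differentiation without (grey) and with (green) cycloheximide; points are arrays, bars are means of 3, and every panel spans the same log2 range. The Cox6a2 arrays with the drug have means of 6.16 at 1 h and 6.15 at 3 h, against 5.19 and 5.41 without it, and the other 5 genes lie closer together.

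The genes whose 16 group means tracked each muscle isoform most closely were ranked by Pearson correlation. The ranking ran over the 6951 genes called by the F-test over time, less the isoform itself (6950), so every gene ranked had already been selected for changing with time. For Cox8b they were Pygm, the muscle glycogen phosphorylase (r = 0.997), Tceal7, Ablim3, Pgam2 and Mypn. For Cox6a2 they were Rbm38 (r = 0.995), Shisa2, Vamp5, Fam171a2 and Ablim3. For Cox7a1 they were Myot, the Z-disc protein myotilin (r = 0.996), Tspan8, Fgf13, Fez1 and Prxl2b.

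Between members, Cox8b stood at rank 15 for Cox6a2 (r = 0.988), while Cox7a1 stood at rank 554 (r = 0.898). For Cox7a1, Cox6a2 ranked 250 and Cox8b 255. The 5 genes nearest to Cox7a1, picked on means that include these times, had differences from 0 h of between 0.05 and 0.36 at 24 h and between 2.47 and 6.13 at 144 h. Those nearest to Cox8b had differences between 2.10 and 3.43 at 24 h. The correlations are across 16 group means of a single time course, with both genes read on the same arrays, and are descriptions without a test.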

How the data were processed

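Expression was measured on 48 MOE430v2 arrays of C2C12 cells. The deposited table holds log2 values for 45101 probe sets, made with RMA per the submitters' processing notes. RMA subtracts background, gives all arrays a common distribution of probe intensity and fits 1 value per probe set. Its version, and whether all arrays were processed together, are not given in the sources used here. Values were used as deposited. The 64 control probe sets were left out. Probe sets with 1 gene symbol in the platform annotation were kept, and the brightest stood for each of 18193 genes, so values of genes with disagreeing probe sets depend on that choice. Precision is limited by the number of arrays, 3 in each group.

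Groups came from the labels. limma 3.58.1 in R 4.3.3 was fitted with 1 coefficient per group over all 48 arrays (32 residual degrees of freedom) and default eBayes. All tests were two-sided, with Benjamini-Hochberg adjustment over the 18193 genes of a comparison and calls at an adjusted p under 0.05. Values after ± are SDs of 3 arrays, and SEs come from the model. Isoform pairs were tested by exact permutation of within-array differences. The script was tested on simulated data. Of 16 measured housekeeping genes, 3 rose and 1 fell at 144 h against 0 h, beside 13.5% and 14.9% of all genes.

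The members and gene lists were chosen with earlier results of these data known. Named genes were all measured subunits of the complex, up to 4 called members of each other list by size at 144 h against 0 h, the 5 genes nearest each muscle isoform by correlation, and always Myog, Ckm, Ppargc1a and Slc25a4. Alternatives were trend and robust moderation, a replicate block, repeated quantile normalization, centring on housekeeping genes, the mean of a gene's probe sets, leaving out probe sets named _s_at or _x_at, leaving out genes under the 40th percentile of mean level, fitting only the arrays compared, and leaving out each array in turn. Protein sequences were not used here.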

Additional observations from a re-analysis of the deposited data

How the results depend on the processing

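The calls of Cox6a2 and Cox8b against 0 h at 24, 48, 96 and 144 h, and of Cox7a1 at 48, 96 and 144 h, held under every alternative run, those without single arrays included. At 144 h the log2 difference stayed between 4.98 and 5.56 for Cox6a2, 5.18 and 5.40 for Cox8b, and 4.04 and 4.60 for Cox7a1. Probe sets of genes near the low end of the array, such as Cox7c and Ppargc1a, limit what a missing call can show there.

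Counts of called isoforms moved as follows. With only the compared arrays fitted, the muscle isoforms called became 1 in place of 0 at 12 h against 0 h (Cox8b), 2 in place of 0 at 0 h against -24 h (Cox7a1 and Cox8b), 1 in place of 3 from 24 h to 48 h, 1 in place of 2 from 48 h to 96 h, and 0 in place of 1 from 96 h to 144 h. Centring on housekeeping genes left 1 of the 3 muscle isoforms from 24 h to 48 h and 0 from 96 h to 144 h, and quantile normalization also left 0 there. The general isoforms called at 144 h against 0 h became 1 (Cox6a1) with trend and robust moderation, with quantile normalization and with the mean of probe sets, where the main count was 0. The mean of probe sets also gave 1 general isoform at 48 h against 0 h (Cox7a2) and 1 at 144 h against -24 h (Cox6a1). Without single arrays, the muscle isoforms called ranged from 1 to 2 for 12 h to 24 h, 0 to 3 for 24 h to 48 h, 0 to 1 for 96 h to 144 h, and 0 to 1 for cycloheximide at 1 h. The general isoforms called ranged from 0 to 1 both at 144 h against 0 h and at 24 h against -24 h. The cause was not tested, other than that fewer arrays enter the fits without single arrays or with only the compared arrays. Over the comparisons, counts of all genes called moved in 38 alternative fits and stayed close to the main count in 154. Without single arrays they moved in 40 and stayed close in 110. Shares over all genes in each setting are not given here, so the isoform counts cannot be set against them.

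Set at 0 h alone against 144 h alone, the pairs changed by 5.49 for Cox6a2 minus Cox6a1, 4.17 for Cox7a1 minus Cox7a2 and 5.64 for Cox8b minus Cox8a, with an exact permutation p of 0.10, the smallest that 3 against 3 allows. The Cox17 difference at 144 h, 0.91 (adjusted p = 6.72e-09) with all probe sets, turned to -0.083 (adjusted p = 0.612) without probe sets named _s_at or _x_at.

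Replicate numbers are shared between groups. Deviations from group means correlated with a median of 0.31 between arrays of the same number in different groups (lowest -0.46, highest 0.74). Between arrays of different numbers the median was -0.17. For 44 of 48 arrays, the mean correlation with arrays of other groups was highest for their own number. Arrays that share a number were thus alike, but the labels do not say what a number marks. The main fit therefore left the number out, and the block was run as an alternative. Cox6a2 was highest on the array numbered 1 in 12 of 16 groups, and Cox8a in 14. With the replicate block, the muscle isoforms called became 1 at 12 h against 0 h (Cox8b) and 1 with cycloheximide at 1 h and 1 at 3 h (Cox6a2), in place of 0. The general isoforms called became 2 at 144 h against 0 h (Cox6a1 and Cox8a), 1 at 48 h against -24 h (Cox8a) and 1 at 144 h against -24 h (Cox6a1), also in place of 0. Shares over all genes with the block are not given here. Whether the block raised calls across all genes therefore cannot be read from these counts.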

Other observations

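The spread between arrays of Cox6a2 and Cox8b was widest at 6 h and 9 h among untreated groups, before either gene passed against 0 h, and the muscle markers Myog, Ckm, Myh3 and Mef2c also differed between those arrays. At 6 h Cox6a2 read 6.41, 4.91 and 5.34 and Cox8b read 5.54, 4.51 and 4.93. On those arrays Myog read 12.27, 10.76 and 11.26, Ckm 8.10, 5.94 and 6.51, Myh3 9.01, 6.34 and 7.48, and Mef2c 5.74, 4.92 and 5.25. The first array was highest and the second lowest for these 6 genes.

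At 9 h Cox6a2 read 6.84, 5.29 and 5.68 and Cox8b read 6.03, 4.79 and 5.23. Myog read 12.41, 11.39 and 11.40, Ckm 8.70, 6.88 and 7.03, and Myh3 9.59, 7.26 and 8.61, in the same order of arrays as at 6 h. Mef2c read 5.33, 4.47 and 6.29, with the third array highest, so its order differed from that at 6 h. Cox7a1 read 3.68, 3.84 and 3.68 at 6 h and 3.92, 3.78 and 3.70 at 9 h, a range of at most 0.22. The part of the markers' spread in that of the isoforms was not tested.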
